A study of Mus musculus with 2 samples.

Results

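Thy1, Car3, Itih3, Pdgfra, Cd34, Dpt, Pi16, Ly6a, Dpp4 and Dlk1 are 10 of the 30011 gene names on the arrays. They are taken as markers of fibroblasts and of the tunica adventitia, the outer connective tissue coat of the ureter. In newborn ureters, however, the study placed the RNA of Thy1 and Car3 in the lamina propria, beneath the epithelium, by in situ hybridisation. Its antibody staining detected no THY1 protein in older postnatal ureters, and it judged that staining unsuitable for finding the lamina propria. The 10 genes were found as all non-control probes that the array files name for them, 12 probes in all. The brightest probe of a gene over the 4 channels stood for it. The members were chosen from measured values. Thy1, Car3 and Itih3 were selected on the ratio of cyclopamine to control in this comparison, and the other 7 are widely used markers picked with its results known. The ratios of the members are therefore given as a description, without a test.

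Fibroblasts make the collagen-rich matrix of connective tissue and are recognised by surface proteins rather than by a single gene. THY1, CD34, LY6A (SCA1), DPP4 and PDGFRA are such surface proteins, and PI16, DPT and DPP4 are known from fibroblasts of the adventitia around vessels and ducts. In the developing ureter, fibrocytes of the lamina propria, beneath the epithelium, and of the adventitia share a mesenchymal progenitor with smooth muscle cells. The epithelium sends the signal SHH, which the mesenchyme receives through PTCH1 and SMO and answers through GLI transcription factors.

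Ureters of newborn (P0) wildtype NMRI mice were explanted on membranes and cultured for 18 h in medium with serum. The cyclopamine group received cyclopamine at 10 µM, an alkaloid inhibitor of SMO, and the control group received DMF at 1 in 1000, whereas the methods of the study give ethanol as the solvent of cyclopamine. Each of the 2 two-colour arrays compared a cyclopamine pool of ureters with a control pool, so the comparison rests on 2 pools a group. Replicate 1 held female pools with cyclopamine in the red channel, and replicate 2 held male pools with the dyes swapped, so sex, dye orientation and replicate cannot be told apart. A channel name in the labels gives IWP-2, a WNT inhibitor, where titles and treatment entries give cyclopamine, and the latter were followed. The SHH targets Gli1 (log2 ratio of cyclopamine to control -1.83 and -2.09) and Ptch1 (-1.13 and -1.49) were lower on both arrays, and the WNT target Axin2 was not lower (0.36 and 0.63).

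The arrays were not on a common scale, and the 75th percentile of control probe intensity was 3322 on replicate 1 and 621 on replicate 2. Cyclopamine was therefore compared with control within an array. Control intensities of a few genes are also set between the arrays below, beside the 75th percentiles, and there the control dye and the sex differ too. Levels of different probes were compared only to pick the brightest, to call a probe dim, or to say which genes made up most of a sum. The share of control spots well above background was 69.6% on replicate 1 and 64.9% on replicate 2. The uroplakin genes of the urothelium and the smooth muscle genes Acta2, Myh11 and Tagln were measured in every channel, as the label ureter implies. RNA came from whole explants, so fewer cells of a type and less RNA per cell cannot be told apart for any gene below.

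Every member was well above background in all 4 channels. The stretches of probe sequence that caught the transcripts of Thy1 and Car3, selected on their ratio, and of Pdgfra, the member with the highest ratio on replicate 1, are shown first. Each is given as bases 31 to 60 of the 60-base probe, 5′ to 3′ on the strand of the transcript. Capitals mark AATAAA, the polyadenylation signal, where it lies in the stretch.
Thy1: aggaaagaaaactgcacAATAAAaccaagc
Car3: ctcacccagaagcatgaatttcacacctaa
Pdgfra: gaatactgccaaaatgtgtatgacaagctg
On mouse build mm9, the whole probes lie at chr9:43856591-43856650 on the plus strand for Thy1, chr3:14871781-14871840 on the plus strand for Car3 and chr5:75593888-75593947 on the plus strand for Pdgfra. The exon or UTR of these positions is not given in the sources used here. Of these stretches, that of Thy1 holds the signal near its end, so that probe reads the far 3′ end of the transcript.

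Across the 10 members, 4 were lower with cyclopamine on both arrays (Thy1, Car3, Itih3 and Pi16), 2 were higher on both (Pdgfra and Dpt) and 4 went opposite ways (Cd34, Ly6a, Dpp4 and Dlk1). This goes by sign alone. The spots of the channels overlapped for Pdgfra and Ly6a on replicate 2 and for Dpp4 and Dpt on replicate 1. Among the 19397 genes tested on these arrays, 28.9% were lower on both arrays and 28.6% were higher on both. The median log2 ratio of the members was -0.16 on replicate 1 and -0.22 on replicate 2, beside a median of all tested genes of -0.00255 and -0.000196. The filter of the study, a control intensity over 100 and a change of at least 1.5-fold, was applied here to each array in the same direction. It was passed by 3 members in the lower direction (Thy1, Car3 and Itih3), beside 0.63% of all genes that met the intensity limit. It was passed by 0 members in the higher direction, beside 0.212% of all genes. Just inside the limit was Car3, whose smaller change over the arrays was 1.62-fold, and just outside it was Pi16 with 1.24-fold. The limma fit across all probes called 2 members lower (Car3 and Itih3, background 0.866% of genes) and 0 higher (background 0.438%), and 3 members were lower and 2 higher at an unadjusted p under 0.05. Since the rule used this contrast, nothing is read from these counts.

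**Figure D1:**
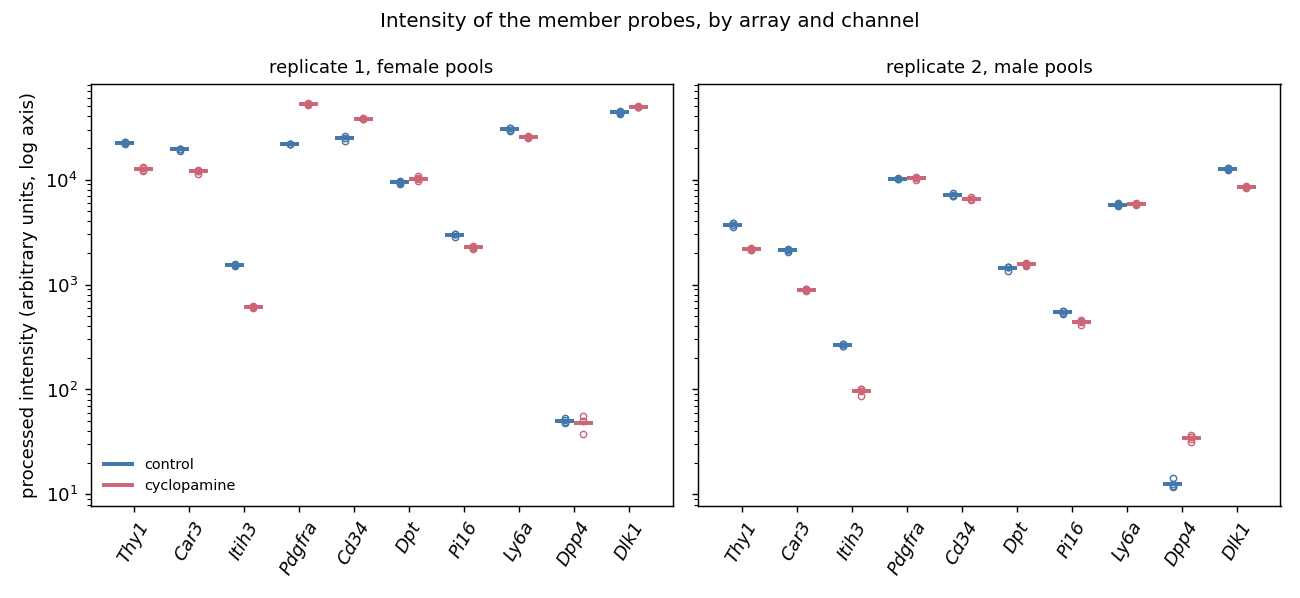
Processed intensity (log axis, arbitrary units) of each member's brightest probe in the control and the cyclopamine channel of replicate 1 (left) and replicate 2 (right). Circles are the spots of a probe that carried no outlier flag and bars are their mean on the log scale. The circles of Thy1, Car3 and Itih3 lie lower with cyclopamine on both arrays without overlap, and those of Pdgfra are separated on replicate 1 alone.

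Among the surface proteins, Thy1 had the most even change. THY1 is a small glycoprotein anchored in the membrane by lipid, found on fibroblasts, neurons and T cells. On replicate 1 its intensity was 22476 in the control and 12658 with cyclopamine, and on replicate 2 it was 3719 and 2157. Both cyclopamine channels were lower than their controls, at 0.563 and 0.580 of the control, and the 4 spots of the channels did not overlap on either array. The log2 ratio was -0.83 and -0.79, with a mean of -0.81 ± 0.03 (SD, n = 2 arrays).

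Thy1 is also a gene of neurons and T cells, so the genes of those cells are given beside it. Of 6 genes of nerve and glia, 0 were called by limma in either direction, and 0 had an unadjusted p under 0.05. Their summed intensity was 20991 and 16961 (control and cyclopamine) on replicate 1, and 4538 and 4848 on replicate 2. The neuronal gene Tubb3 had log2 ratios of -0.24 and -0.13, and Elavl4, an RNA-binding protein of neurons, had 0.23 and -0.06. The T cell genes Cd3e (0.03 and -0.07) and Lck (-0.39 and -0.06) were measured and not called, and Cd3g was not well above background in any channel. The part of neuronal and T cell RNA in the values of Thy1 was not tested.

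Pdgfra, the receptor tyrosine kinase that marks most fibroblasts and their progenitors, differed between the arrays. On replicate 1 its intensity was 21814 in the control and 52788 with cyclopamine, a ratio of 2.42. On replicate 2 it was 10149 and 10250, a ratio of 1.01, and the spots of the channels overlapped. The log2 ratios were thus 1.27 and 0.01, with a mean of 0.64 ± 0.89 (SD, n = 2 arrays), so the spread between arrays was larger than the mean. The related receptor gene Pdgfrb had nearly the same pair, 1.16 and -0.01. Of the ligand genes, Pdgfa had -0.42 and 0.07, Pdgfb 0.30 and -0.12, Pdgfc 0.26 and -0.34, and Pdgfd 0.59 and -0.13. Of these 5 genes, 0 were called by limma in either direction, and 1, Pdgfrb, had an unadjusted p under 0.05.

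Cd34, a sialomucin of vascular endothelium and of adventitial fibroblasts, went opposite ways. Its intensity was 24783 and 38173 (control and cyclopamine) on replicate 1, and 7137 and 6571 on replicate 2. The spots did not overlap on either array, yet the cyclopamine channel was the brighter on replicate 1 and the dimmer on replicate 2. On the log2 scale this was 0.62 and -0.12 (mean 0.25 ± 0.52, SD, n = 2 arrays). The endothelial genes had a median log2 ratio of 0.60 on replicate 1 and -0.12 on replicate 2 over 6 genes. Their summed intensity went from 58405 in the control to 80145 with cyclopamine on replicate 1, and from 14130.0 to 12485 on replicate 2. Kdr, the main VEGF receptor (0.88 and -0.31), Cdh5 and Pecam1 had the signs of Cd34, Emcn (-0.35 and -0.21) and Cldn5 (-0.07 and -0.07) were lower on both arrays, and Tek (0.66 and 0.05) was higher on both. Limma called 0 of the 6 genes (0 at an unadjusted p under 0.05). The part of endothelial RNA in the values of Cd34 was not tested.

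Cd34 and Dlk1 each had a second probe, and the stretches (bases 31 to 60, with AATAAA in capitals) show that the probes of a gene read different parts of its transcript.
Cd34, brightest probe: tctgAATAAAcgtgatgagtgaaaatgatg
Cd34, second probe: ttcccgaaagactcttattgcattggtcac
Dlk1, brightest probe: tgctaccacgctatctaagaaccccttcct
Dlk1, second probe: accactttcaacaaggaggctggtgatgag
The Cd34 probes lie at chr1:196787392-196787451 and chr1:196785280-196785339, and the Dlk1 probes at chr12:110698721-110698781 and chr12:110698502-110698561 (mm9, plus strand). The second Cd34 probe had log2 ratios of 0.41 and -0.02, with the same signs as the first, but its spots overlapped between the channels on replicate 2. The second Dlk1 probe had -0.06 and -0.51, so the probes of Dlk1 differed in sign on replicate 1 and were both lower on replicate 2. On replicate 1 the spots of the second Dlk1 probe overlapped.

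Ly6a, the stem cell antigen 1 of mouse fibroblasts, vessels and blood progenitors, had small ratios. Its intensity was 30155 and 25425 (control and cyclopamine) on replicate 1 and 5783 and 5853 on replicate 2. The channels were separated on replicate 1, where cyclopamine was lower, and overlapped on replicate 2. The log2 ratios were -0.25 and 0.02. Of its relatives on chromosome 15, Ly6c1 had -0.32 and -0.07 and Ly6e -0.05 and 0.08.

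Dpp4, a membrane peptidase of adventitial fibroblasts that is also made by epithelium of the kidney, was dim. Its intensity was 50.5 and 48.1 (control and cyclopamine) on replicate 1 and 12.6 and 34.3 on replicate 2, under the limit of 100 in every channel. The channels overlapped on replicate 1, and on replicate 2 all spots with cyclopamine were brighter. This gave log2 ratios of -0.07 and 1.44 (mean 0.69 ± 1.07, SD, n = 2 arrays). The genes with the most similar pair of ratios, among 16006 tested genes, were Tigd4 (-0.04 and 1.47), Sall1 (-0.05 and 1.48) and Lhx1 (0.09 and 1.34). Sall1 and Lhx1 are transcription factors of the developing kidney. Of the 4 genes listed for kidney tubule, Umod and Slc34a1 were not well above background in any channel, and Lrp2, the endocytic receptor megalin, had 1.23 and 0.28 and was not called (limma adjusted p = 0.12). The summed intensity of these 4 genes was 104 and 184 (control and cyclopamine) on replicate 1, and 41.2 and 50.5 on replicate 2. The part of kidney tissue in the values of Dpp4 was not tested.

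**Figure D2:**
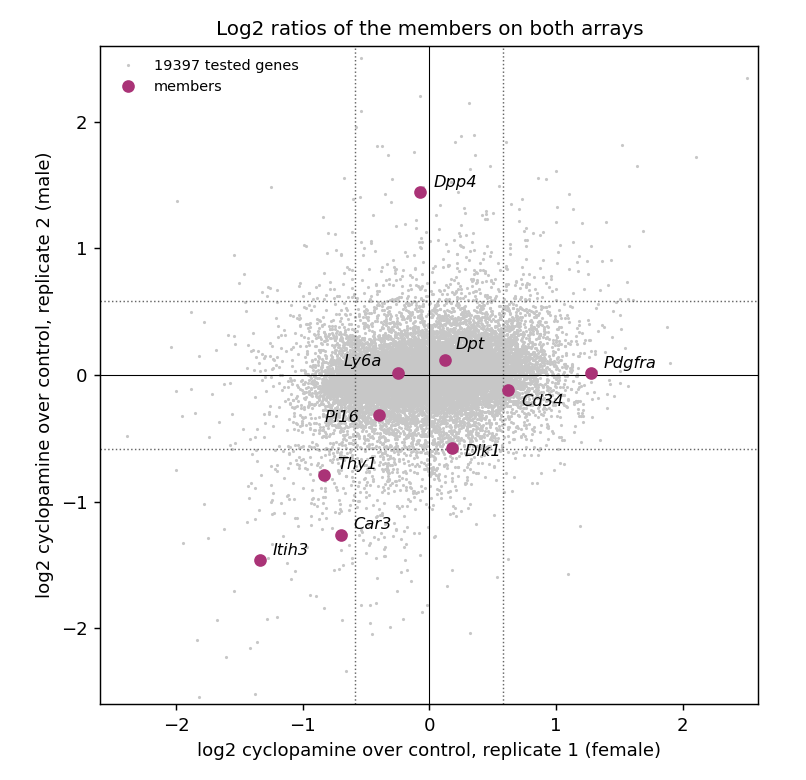
Log2 ratio of cyclopamine to control on replicate 1 (horizontal axis) and replicate 2 (vertical axis) for the 10 members (large points) over the 19397 tested genes (grey points, 10 of which lie beyond the axes at 2.6). Dotted lines mark 1.5-fold. Thy1, Car3 and Itih3 lie beyond 1.5-fold in the lower direction on both axes, Pdgfra lies at 1.27 and 0.01, and Dpp4 at -0.07 and 1.44.

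Of the secreted members, Itih3 had the lowest ratio of all 10 genes. ITIH3 is a heavy chain of the inter-alpha-trypsin inhibitors, which are bound to hyaluronan in the matrix. Its intensity was 1540 in the control and 610.1 with cyclopamine on replicate 1, and 264 and 95.9 on replicate 2. The cyclopamine channels stood at 0.396 and 0.363 of the controls, and the spots did not overlap on either array. The log2 ratios were -1.34 and -1.46, with a mean of -1.40 ± 0.09 (SD, n = 2 arrays). The other heavy chain genes did not have such a ratio. Itih1 had 0.02 and -0.06, Itih2 0.13 and -0.07, Itih4 0.57 and 0.51, and Itih5 -0.11 and -0.61.

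The promoter of Itih3 is shown because GLI factors, the effectors of SHH signaling, bind the letters TGGGTGGTC, and Itih3 was the lowest member. The RefSeq table of promoters (build GRCm38.p6, a window of 300 bases around each start) held 7 of the 10 members, and Thy1, Car3 and Ly6a were not among them. Bases 131 to 270 of the Itih3 window, at chr14:30923568-30923707 on the minus strand, are printed with the core letters TGGGTGG, on either strand, and the letters TATAAA in capitals.
Itih3: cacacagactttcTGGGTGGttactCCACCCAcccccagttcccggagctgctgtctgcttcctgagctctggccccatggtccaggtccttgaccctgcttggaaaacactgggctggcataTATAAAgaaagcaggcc
The core was found at 2 places upstream of the start, at base 144 and, on the other strand, at base 156 of the window. The whole of TGGGTGGTC, of which the core is a part, was in 0 of the 7 member promoters and in 0.253% of all 32851 promoters in the table. The core was in the promoters of Itih3 and Cd34 and in 9.30% of all promoters. TATAAA was in those of Itih3 (base 254) and Dpt (base 263), where it lies just after the annotated start, in that of Dpp4 (base 24), far before it, and in 13.6% of all promoters. These letters were searched after the ratios had been seen, and a match is not a binding site.

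Pi16, a secreted peptidase inhibitor that marks adventitial fibroblasts, was lower on both arrays by less than the limit. Its intensity was 2978 and 2263 (control and cyclopamine) on replicate 1 and 547 and 440.3 on replicate 2. The spots did not overlap on either array. The log2 ratios were -0.40 and -0.31 (mean -0.35 ± 0.06, SD, n = 2 arrays).

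Dpt, dermatopontin, a matrix protein that binds decorin and is expressed across fibroblasts of most organs, was nearly level. Its intensity was 9391 and 10242 on replicate 1 and 1436 and 1561 on replicate 2. Cyclopamine was slightly brighter on both arrays, and the spots overlapped on replicate 1. Its log2 ratios were 0.13 and 0.12.

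Car3 encodes carbonic anhydrase 3, a cytoplasmic enzyme known for its abundance in fat, skeletal muscle and liver, and present in some fibroblasts. Its intensity was 19433 and 11962 (control and cyclopamine) on replicate 1 and 2125 and 887 on replicate 2. Both cyclopamine channels were lower, at 0.616 and 0.417 of the control, and the spots did not overlap. The log2 ratios were -0.70 and -1.26, with a mean of -0.98 ± 0.40 (SD, n = 2 arrays). The control intensity on replicate 1 was 9.14 times that on replicate 2, beside 5.35 times for the 75th percentile of all probes.

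The relatives of Car3 did not have its ratios. Among other carbonic anhydrase genes, Car2 had log2 ratios of -0.14 and -0.12, Car4 0.17 and -0.32, Car9 -0.48 and 0.07, Car12 0.63 and 0.51 and Car13 0.01 and -0.15. Of the 24 tested relatives of all members, limma called 0 in either direction, and 3 (Itih4, Car12 and Pdgfrb) were higher at an unadjusted p under 0.05. The lowest mean was that of Car1 (-0.44, limma adjusted p = 0.56) and the highest that of Pdgfrb (0.58, adjusted p = 0.369).

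Genes of fat cells and of skeletal muscle are given beside Car3. Of 9 tested fat cell genes, 2 fell by limma with Benjamini-Hochberg adjustment, namely Cfd (adipsin, log2 ratios -0.91 and -1.02, adjusted p = 0.0122) and Cidec, a lipid droplet protein (-0.46 and -2.04, adjusted p = 0.00215), and 0 rose. Cidec was not well above background with cyclopamine on replicate 2, so its second value is not a measured level, and its call was lost with other background corrections (mean log2 ratio -1.25, against -0.45 with normexp offset 10, adjusted p = 0.509, and -0.29 with offset 50, adjusted p = 0.667). Adipoq, the fat hormone adiponectin, had -0.86 and -0.65 (adjusted p = 0.0974), Plin1 -0.48 and -1.18 (adjusted p = 0.0545), and Lpl, with the highest mean of the list, 0.25 and 0.29. Lep, the hormone leptin, was not well above background in any channel.

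The summed intensity of the 10 fat cell genes was 96501 and 95538 (control and cyclopamine) on replicate 1, and 16299 and 15939.8 on replicate 2, most of it from Fabp4 and Lpl. The control intensity of Adipoq on replicate 1 was 21.7 times that on replicate 2, and that of Cfd 23.4 times. Adipoq and Cfd, and also Cidec (20.8 times) and Retn (19.4 times), were thus further apart between the control channels than Car3 was. Plin1, at 8.78 times, and Fabp4, at 5.43 times, were not. The dye and the sex of these control channels differed as well. Of 5 tested skeletal muscle genes, 1 fell, Acta1, the skeletal muscle actin (-0.82 and -0.89, adjusted p = 0.0356), and 4 were lower on both arrays. Their summed intensity, over 8 genes on the arrays, was 23975 and 14819.6 on replicate 1, and 3863 and 2162 on replicate 2, most of it from Acta1 and Ckm, and CKM is also a protein of late smooth muscle cells of the ureter. Pax7, Myog and Myh3 were not well above background in any channel. The part of fat and muscle RNA in the values of Car3 was not tested.

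Dlk1 is an imprinted gene for a membrane-bound and shed ligand-like protein of stromal and fat progenitors. Its intensity was 43623 and 49460.1 (control and cyclopamine) on replicate 1 and 12700.4 and 8501 on replicate 2. Cyclopamine was the brighter channel on replicate 1 and the dimmer on replicate 2, without overlap of the spots. As log2 ratios these were 0.18 and -0.58 (mean -0.20 ± 0.54, SD, n = 2 arrays).

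Dlk1 lies in an imprinted cluster with Meg3, Rtl1 and Dio3. Dio3, the thyroid hormone deiodinase of that cluster, had 679 and 286 on replicate 1 and 100.1 and 39.8 on replicate 2 (log2 ratios -1.25 and -1.33, adjusted p = 0.000277). It was the single gene called among 8 tested imprinted genes, and it was lower on both arrays. Meg3, the non-coding RNA of the cluster, had -0.58 and 0.25, and Rtl1 was not well above background in any channel. The imprinted genes listed from elsewhere in the genome shared the signs of the brightest Dlk1 probe, whichever parental copy is active, apart from Igf2. Genes of other lists, such as Kdr (0.88 and -0.31) and Dcn (0.42 and -0.09), had these signs too. Over all tested genes, 28.9% were lower on both arrays and 28.6% were higher on both, so opposite signs were common. The second Dlk1 probe was lower on both arrays (-0.06 and -0.51) and did not have these signs. Peg3 had 0.58 and -0.44, H19 0.45 and -0.17 and Cdkn1c 0.07 and -0.41. Mest had 0.72 and -0.49, Plagl1, the highest of the list, 1.19 and -0.33, and Igf2 -0.58 and -0.57.

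Other fibroblast and adventitial genes outside the 10 had no call. Of 22 tested genes of this kind, 0 were called lower or higher by limma, 8 were lower on both arrays and 2 were higher on both. At an unadjusted p under 0.05, 1 was lower (Igfbp6) and 3 were higher (Gas1, Pdgfrb and Gsn). Their median log2 ratio was 0.04 on replicate 1 and -0.21 on replicate 2. The lowest mean was that of Igfbp6, an IGF-binding protein of adventitial fibroblasts (-0.52 and -0.82, adjusted p = 0.179), and the highest that of Gas1, a co-receptor of SHH that SHH signaling represses (0.82 and 0.38, adjusted p = 0.272). Mfap5, a microfibril protein, had -0.59 and -0.31, and Dcn, decorin, 0.42 and -0.09. The genes of this list thus had values on both sides of 0, as the members did.

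By in situ hybridisation on sections of newborn ureters, the study described a set of genes of the lamina propria, and Thy1 and Car3 are 2 of them. Its candidates came from these arrays and from arrays of ureters treated with IWP-2, so the choice of the set is not independent evidence of direction. In cultured ureters, where staining was harder to detect, the study also saw Thy1 clearly reduced with cyclopamine. It reported the same for Aldh1a2, Avpr1a, Bmp4, Foxf1, Itga4 and Ptch1, did not name Car3 among the reduced genes, and described Axin2 as slightly increased. Of the 8 other genes of the set, limma called 4 lower and 0 higher on the arrays. At an unadjusted p under 0.05, 6 were lower and 1 was higher. The genes that fell were Ptch1 (mean log2 ratio -1.31, limma adjusted p = 0.000248), the forkhead factor Foxf1 (-0.98, adjusted p = 0.0127), the vasopressin receptor Avpr1a (-0.96, adjusted p = 0.0149) and the integrin Itga4 (-0.87, adjusted p = 0.0476). Itga4 differed between the arrays (-0.36 and -1.38), and its call was lost with normexp offset 50 and without a filter on dim probes, among other settings. Aldh1a2, the study's marker of the lamina propria, had -0.62 and -0.65 and was not called (limma adjusted p = 0.218). Bmp4 had -0.83 and -0.78 (limma adjusted p = 0.0589), the pair nearest to that of Thy1 among 16006 tested genes (distance 0.00877 in log2 units). Next to it were Sgca (-0.83 and -0.76) and Gm13446 (-0.87 and -0.77), which are not in the set. Foxf1 (-0.68 and -1.27) and Avpr1a (-0.66 and -1.26) were the genes nearest to Car3, before Penk (-0.77 and -1.20), which is not in the set. Nearest to Itih3 were 2700046A07Rik (-1.27 and -1.45), Dio3 and Ptch1. Likeness over 2 arrays is a description of 2 numbers a gene. Thy1, Car3 and Itih3 were selected on these same ratios, and candidates of the study came from these arrays too. Nothing is therefore read from their nearness.

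Of 6 SHH target genes, 5 fell (Foxl1, Gli1, Ptch1, Hhip and Foxf1) and 0 rose. Foxl1, a forkhead factor of subepithelial fibroblasts, had the lowest mean, -2.61 (adjusted p = 5.4e-12). Of 8 smooth muscle genes, 1 fell, the smooth muscle actin gene Actg2 (-0.71 and -1.09, adjusted p = 0.0251), and of 8 urothelial genes limma called 0 (1, Trp63, was higher at an unadjusted p under 0.05), with medians of 0.15 and 0.11. Of 6 leukocyte and 3 mesothelial genes, limma called 0, and 1 mesothelial gene, Wt1, was higher at an unadjusted p under 0.05. The ratios of Thy1, Car3 and Itih3 lay between those of Gli1 and of the urothelial genes.

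**Figure D3:**
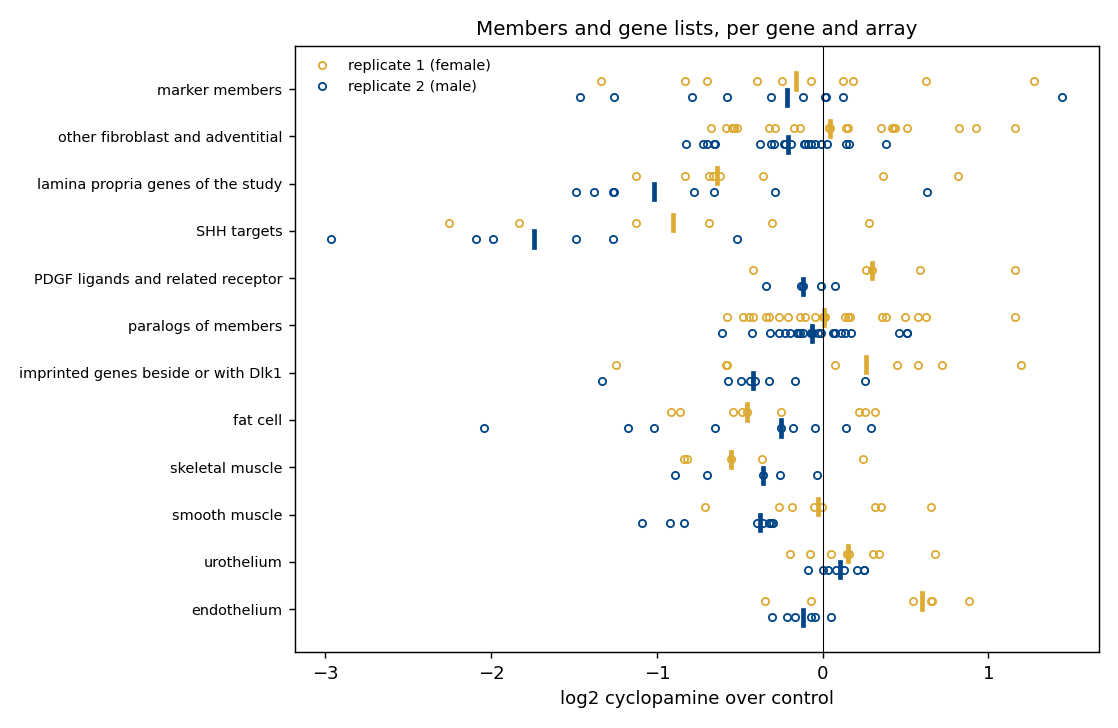
Log2 ratio of cyclopamine to control for each tested gene (circles) of the 10 members and of 11 gene lists on replicate 1 and replicate 2, with the median of each list as a bar. SHH targets have medians of -0.91 and -1.74, the members -0.16 and -0.22, and the median of endothelial genes lies at 0.60 on replicate 1 and -0.12 on replicate 2.

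On replicate 1 the ratios moved with the length of the gene in the genome, and the members differ widely in length. Over 4 equal bins of the tested genes by length, the median log2 ratio on replicate 1 was -0.25, -0.06, 0.14 and 0.28 from the shortest genes to the longest, whereas on replicate 2 it was -0.03, -0.00167, 0.02 and -0.01. Thy1 (5.20 kb) and Ly6a (3.15 kb) are in the bin of the shortest genes, Pdgfra (46.9 kb), Cd34 and Dpt in the third bin, and Dpp4 (82.2 kb) in that of the longest. With the trend along length removed from each array, Pdgfra had 1.09 and -0.02, Cd34 0.59 and -0.15, Thy1 -0.62 and -0.77, Car3 -0.56 and -1.26, and Itih3 -1.29 and -1.48. Car3 then no longer passed the 1.5-fold limit on replicate 1, which left 2 members past the filter. The difference of Pdgfra between the arrays was thus almost as large without the trend. Ly6a, in contrast, had 0.02 and 0.05 without it.

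**Figure D4:**
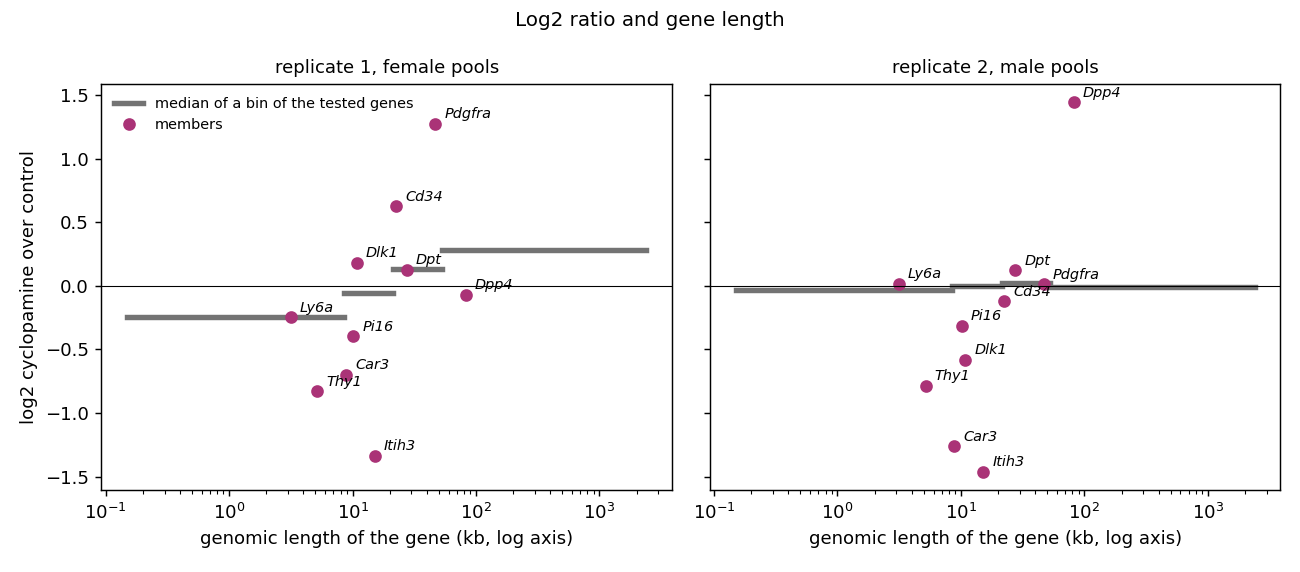
Log2 ratio of cyclopamine to control of the members (points) against the genomic length of the gene (log axis, kb) on replicate 1 (left) and replicate 2 (right). Grey bars are the medians of 4 bins of tested genes by length, which go from -0.25 to 0.28 on replicate 1 and stay between -0.03 and 0.02 on replicate 2.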

How the data were processed

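RNA of pooled ureter explants was hybridised to 2 Agilent two-colour arrays. Spot intensity per channel was taken from the deposited scanner output, for which the file headers name Feature Extraction 12.2.0.7 and the submitters' processing notes version 10.7.3.1. In that intensity the authors' software had already subtracted background, removed spatial trends and balanced both dyes of an array (linear and LOWESS). The deposited log10 ratio (red against green, per the file headers) served to find the direction of the series table. That table, the authors' own, holds a score whose values show it to be a signed fold change of cyclopamine against control, kept to a single decimal. It was used as an alternative.

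Spots flagged as outliers (2.89% and 3.15%) and control spots were dropped, and none was saturated. The log2 values of the spots left for a probe, at most 4, were averaged. Of 39429 probes, 28328 were named through their accession in the RefSeq gene table, which changed 1359 names. Ratios are given as cyclopamine over control throughout. Probes with at least 0.5 of their spots well above background in a group on both arrays entered the limma fit (version 3.58.1, R 4.3.3; lmFit, then eBayes; +1 and -1 for the dye orientation, Benjamini-Hochberg over all tested probes, limit 0.05), and the steps were tested on simulated data. The fit leaves 1 residual degree of freedom a probe, so precision is limited by having 2 arrays. The methods call the pools independent, but no source says that they came from separate culture days. The p-values rest on the spread between these pools, which eBayes draws towards a value shared by all probes. A call therefore does not mean that the arrays agreed in size. Hhip was called at log2 ratios of -0.31 and -1.99 (limma adjusted p = 0.00683). Bmp4 was not called at -0.83 and -0.78 (limma adjusted p = 0.0589). Both arrays came from a single slide and scan.

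The members and the gene lists were chosen with earlier results of these data known. Named were all members, from each list the called genes (up to 5 a direction) and those with the highest and lowest mean, Gli1 and Ptch1, and the 3 tested genes nearest to a member by their pair of ratios. Further list genes were chosen after their values were seen, for their kinship with a member. A list gene that this rule names and a probe stretch are not reported here. Nearest genes were sought among tested genes matched in the RefSeq table. Alternatives were other background corrections (normexp with offset 50 or 10, then loess), the series table, centring on the median, removal of a trend along gene length, other limits, no filter on dim probes, a prior with an intensity trend, the channels as separate samples, and each array alone. Figures were drawn with matplotlib 3.10.9 in Python 3.11.15.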

Additional observations from a re-analysis of the deposited data

Results flagged for a closer look

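The results in this group went one way on replicate 1 (female pools) and the opposite way on replicate 2 (male pools), and the difference was not tested. Over all 19397 tested genes, 28.9% were lower on both arrays and 28.6% were higher on both, so opposite signs were common. Nothing particular to the members or lists is read from them. Sex cannot be told apart from dye orientation and replicate. Among the members, the log2 ratio on replicate 1 minus that on replicate 2 was 0.74 for Cd34, 0.76 for Dlk1, -0.26 for Ly6a and -1.51 for Dpp4. For Dlk1 this holds for the brightest probe, and the second probe was lower on both arrays (-0.06 and -0.51). The second Cd34 probe had 0.41 and -0.02, with overlapping spots on replicate 2. Among the medians of gene lists, the same difference was 0.25 for other fibroblast and adventitial genes, 0.42 for PDGF ligands with Pdgfrb, 0.0703 for relatives of the members, 0.68 for imprinted genes, 0.72 for endothelium, 0.19 for leukocytes, 0.20 for nerve and glia and -0.24 for mesothelium. Pdgfra is not in this group, since its ratio was above 0 on both arrays, yet its difference between the arrays was 1.26. Its ratio on replicate 2 was 0.01, with overlapping spots. The spots of Ly6a on replicate 2 and of Dpp4 on replicate 1 overlapped too, so the signs there are not settled.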

How the results depend on the processing

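The sign of the mean log2 ratio of the members was the same under all 6 alternatives that use both arrays, except for Ly6a, which went from -0.11 to 0.04 once the trend along gene length was removed. With a single array, Cd34 (-0.12 on replicate 2), Ly6a (0.02 on replicate 2), Dpp4 (-0.07 on replicate 1) and Dlk1 (0.18 on replicate 1) turned sign. The means of the genes past the filter ranged from -0.82 to -0.70 for Thy1, -0.99 to -0.91 for Car3 and -1.41 to -1.29 for Itih3 over those 6 alternatives.

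The number of members past the filter in the lower direction was 3, 2 with the length trend removed (without Car3) and 1 at a 2-fold limit (Itih3). In the higher direction it was 0, 1 where the mean ratio had to pass (Pdgfra), and 0 to 2 with a single array (without replicate 2, Pdgfra and Cd34). Limma called 2 members lower (Car3 and Itih3), and 3, Thy1 added, with normexp offset 10, centring on the median, the length trend removed or an intensity trend in the prior. With normexp offset 50 it called 1 (Itih3). With the series table values it called 0 (3 at an unadjusted p under 0.05), as it did where each of the 4 channels was its own sample, without the replicate block (2 at an unadjusted p under 0.05). That fit without the replicate block also called 0 probes and 0 list genes in either direction.

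Over all probes, 200 were called lower and 118 higher. With normexp offset 50 these were 42 and 12, with offset 10 they were 123 and 52, with the values of the series 0 and 0, with the length trend removed 320 and 208, and without a filter on dim probes 261 and 216. Of the list genes, 12 were called lower and 0 higher, beside 4 lower with normexp offset 50, 0 with the values of the series, 14 with centring or an intensity trend in the prior, and 16 lower and 1 higher (Gas1) with the length trend removed. Over all tested list genes under single alternatives, 35 values lost a call, 9 gained one (of Bmp4, Adipoq, Plin1, Aldh1a2 and Gas1) and 0 called values turned sign. The cause of these changes was not tested. The number of arrays, and for Dpp4 the dim signal, limit what can be read.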
